A study of Mus musculus with 12 samples.

Results

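Among the genes counted in isolated pancreatic islets, 25 of 38561 were far lower on the NOD background than on the B10 background. They were chosen by their values: the lowest CPM (each count divided by its library's total, times the same constant in every library) in the 6 B10-background libraries had to be at least 1 and at least 4 times the highest CPM in the 6 NOD-background libraries. Altogether 31 genes met this, and 6 were left out by symbol, among them those starting with Zfp, Trim or H2-. Of the 13277 genes that reached 1 CPM in all 6 B10-background libraries, the 25 make up 0.188%. Because the strain contrast chose these genes, their strain differences are given as a description, with no test. Tests are kept for what the choice did not use, which is the effect of the insHEL transgene on these genes and the strain difference of other genes near them or like them in sequence.

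The study profiled RNA of islets from 12 male mice that were 11 weeks old, with a library for each mouse and 4 groups of 3. The NOD_insHEL group has the NOD/LtJ background and the insHEL transgene, and the NOD group has that background without it. The B10_insHEL group has the C57BL/10SnSg background, a C57BL line here called B10, with insHEL, and the B10 group lacks it. insHEL, named Tg(ILK3mHEL)3Ccg in the strain label, puts hen egg lysozyme under an insulin promoter, so it is meant for beta cells and is a foreign protein there. All 4 groups carry a Rag mutation, without which B and T lymphocytes could mature, and the MHC k haplotype, and all mice were normoglycemic. NOD mice are known for a lymphocyte attack on their islets, and B10 mice are not. The labels say that islets were freed with collagenase, with actinomycin D and α-amanitin, which stop transcription, in the solutions, and were picked by hand, 20 to 137 per library. Nothing in the labels says whether mice of a group were littermates.

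Library totals ran between 2212062 and 13240553 counts on the NOD background and between 9904849 and 21138456 on the B10 background. In the shallowest, NOD_insHEL replicate 3, 0 counts allow a level of up to 1.36 CPM, the value of 3 counts there, against 0.142 CPM in the deepest, B10 replicate 2. These limits cover counting error only. The beta cell markers summed to 192950 to 283180 CPM and the lymphocyte markers to 2.48 to 10.5 CPM, the ranges over all 12 libraries. Rag2 had 0 counts throughout and Rag1 had 13 to 141, but the labels do not say which Rag gene or which part of it is mutated, so these counts check nothing. Acinar marker genes, which come from exocrine tissue, summed to 150 to 200 CPM in NOD_insHEL, 229 to 392 CPM in NOD, 181, 2663 and 191 CPM in B10_insHEL replicates 1 to 3 and 3958 to 4988 CPM in B10. All 27 acinar markers had counts somewhere, and 0 of the 25 genes belong to any of the cell type lists used. The part of acinar content in the strain differences of the 25 genes was not tested. The libraries of the B10 group bear higher numbers in their descriptions than the other 9, which run between 1 and 29. What these numbers stand for is not stated, and for comparisons that use the B10 group they cannot be told apart from the group. In bulk islets, fewer cells of a type and less RNA per cell cannot be told apart either.

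The 25 genes are of mixed kinds. By GENCODE annotation 17 are protein coding, 4 are processed pseudogenes, 3 are long noncoding RNAs and 1 identifier has no entry. Processed pseudogenes are copies of messenger RNA that were pasted back into the genome, usually without introns, and they can be so like their parent gene that short reads fit both. Pseudogenes make up 16.0% of the 25 genes and 4.93% of the 13277 genes that pass the level alone, and protein-coding genes make up 68.0% against 91.1%. The 13277 still hold genes with the symbols left out of the 25, so the sets are not wholly alike. The same rule turned round, with NOD-background libraries high, gave 37 genes, of which 21.6% are pseudogenes and 59.5% protein coding. The 24 annotated genes lie on 13 chromosomes, with 4 on chromosome 4, 3 each on chromosomes 2 and 9, and 2 each on chromosomes 3, 14, 19 and X. Chromosomes 1, 5, 6, 7, 8 and 11 hold 1 each.

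Their levels span a wide range. In B10-background libraries the median ran between 1.48 CPM for Gm5148 and 115 CPM for Dio1, with 6 genes at 20 CPM or more, 9 between 5 and 20 CPM, and 10 under 5 CPM. In NOD-background libraries 17 of the 25 had 0 counts in at least 1 library, and 2 of them, Gm20400 and Gm4735, had 0 counts in all 6. The fitted log2 difference, NOD minus B10 averaged over insHEL, had a median of -4.31 over the 25 genes and 0.01 over all 15352 genes tested. Setting the 2 genes without NOD counts at their lower bounds left that median at -4.31, as it had to, since both bounds still lie below it. The 25 differences ran between -9.96 (Gm20400, whose value rests on a count of 0) and -2.76 (Ahcy). In insHEL islets alone, which avoids the B10 group and its higher description numbers, the median was -4.57 and the range -9.80 to -2.93, and without insHEL the median was -4.27. The members just inside the 4-fold limit were Smim6, with a ratio of lowest B10-background to highest NOD-background CPM of 4.10, Afm with 4.10 and ENSMUSG00000062808 with 4.24. Just outside it lay Rab6b with 3.92, Gm14443 with 3.90 and Hspa8 with 3.87. At the level limit the lowest B10-background CPM was 1.14 for Gm5148, 1.21 for Afm and 1.66 for Nxpe2 on the inside, and 0.790 for Hba-a2, 0.697 for Styk1 and 0.404 for Gm20634 on the outside.

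**Figure D1:**
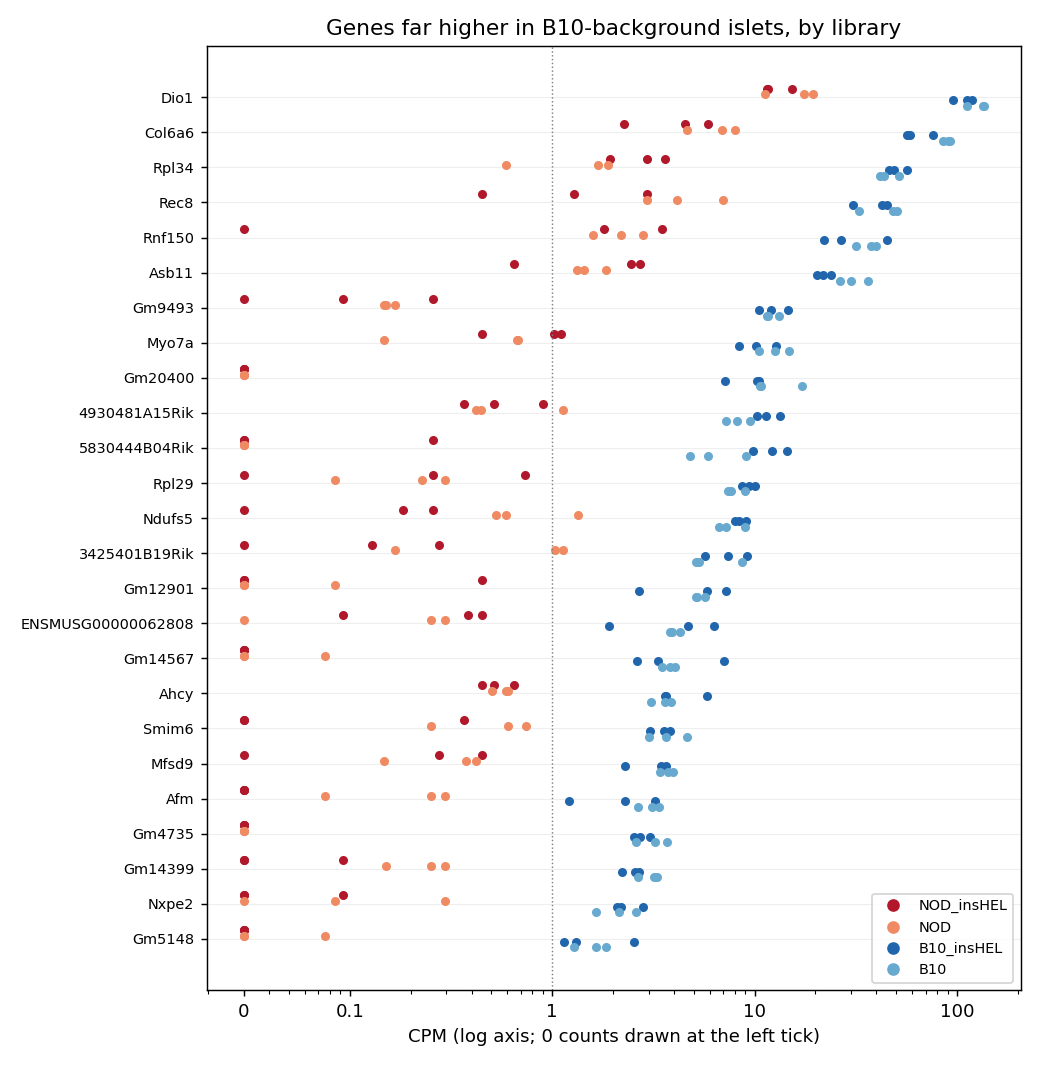
CPM of the 25 genes in each of the 12 libraries on a log axis, genes ordered by their median in B10-background libraries and each point 1 library, coloured by group. For Dio1, the highest, the 6 NOD-background points sit between 11.3 and 19.5 CPM and the 6 B10-background points between 95.3 and 135 CPM; points with 0 counts are drawn at the left tick.

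Dio1 had the highest counts of the 25. It encodes type 1 iodothyronine deiodinase, a selenoenzyme that removes an iodine from thyroxine to make the active hormone T3, and it is best known from liver, kidney and thyroid. Dio1 (chr4:107291465-107307169, minus strand) had 11.6, 11.6 and 15.4 CPM in NOD_insHEL, 19.5, 11.3 and 17.6 CPM in NOD, 95.3, 112 and 118 CPM in B10_insHEL, and 135, 112 and 135 CPM in B10. The averaged log2 difference was -3.06 (SE 0.12). Unlike most of the 25, it was well counted on both backgrounds, with 750 counts summed over the NOD-background libraries and 9915 over the B10-background ones. Per kilobase of exon its median was 6.85 CPM on the NOD background and 58.4 CPM on the B10 background. That B10-background median was the highest per kilobase among the 24 annotated genes. The other deiodinase genes, Dio2 and Dio3, were in the table but had too few counts to be tested.

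Col6a6 and Myo7a encode large structural and motor proteins. Col6a6 is a chain of collagen VI, the beaded microfibril of the matrix around many cells. Col6a6 (chr9:105687809-105828160, minus strand) had 4.52, 5.91 and 2.26 CPM in NOD_insHEL, 4.63, 6.87 and 7.98 CPM in NOD, 58.4, 76.3 and 56.5 CPM in B10_insHEL, and 85.5, 92.7 and 90.2 CPM in B10. The averaged log2 difference was -3.77 (SE 0.13), and the 3 B10 libraries were all above the 3 B10_insHEL libraries. Of the other collagen VI genes 4 were tested, of which 2 were higher in NOD and 0 were lower, beside 15.7% of all 15352 genes tested that were higher and 17.6% that were lower (edgeR, adjusted p under 0.05). Col6a3 averaged 51.9 ± 6.71 CPM in NOD_insHEL, 47.6 ± 7.80 CPM in NOD, 15.9 ± 3.97 CPM in B10_insHEL and 16.5 ± 4.58 CPM in B10 (SD, n = 3 each), a log2 difference of 1.63. Col6a5, another chain gene, differed by 1.78 (SE 0.37, edgeR adjusted p = 0.00150). Myo7a, the unconventional myosin VIIa that hair cells of the inner ear and the retina need, lies at chr7:98051060-98119524 on the minus strand. Myo7a had 1.11, 1.03 and 0.452 CPM in NOD_insHEL, 0.674, 0.680 and 0.148 CPM in NOD, 10.2, 12.7 and 8.39 CPM in B10_insHEL, and 12.6, 14.8 and 10.6 CPM in B10. The averaged log2 difference was -3.92 (SE 0.23). Its closest relative Myo7b went the other way, with 1.16 to 4.98 CPM on the NOD background and 0.0871 to 1.04 CPM on the B10 background (log2 difference 2.33, SE 0.42, edgeR adjusted p = 0.000274).

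Rec8, Rnf150 and Asb11 act in protein complexes. Rec8 is the cohesin subunit that holds sister chromatids together in meiosis, in the place that Rad21 takes in dividing body cells. Rec8 (chr14:55618037-55625395, plus strand) had 2.95, 1.28 and 0.452 CPM in NOD_insHEL, 4.13, 7.02 and 2.96 CPM in NOD, 42.8, 30.7 and 44.9 CPM in B10_insHEL, and 32.8, 48.4 and 50.7 CPM in B10. The averaged log2 difference was -3.73 (SE 0.26), whereas Rad21 differed by -0.26 (SE 0.08, edgeR adjusted p = 0.0153). Rnf150, a membrane protein with a RING finger of the kind found in ubiquitin ligases, spans chr8:82863356-83091268 on the plus strand. Rnf150 had 3.50, 1.80 and 0 CPM in NOD_insHEL, 2.19, 1.59 and 2.81 CPM in NOD, 22.0, 45.1 and 26.8 CPM in B10_insHEL, and 31.8, 37.8 and 39.7 CPM in B10. All 6 B10-background libraries were above all 6 NOD-background ones by the rule. B10_insHEL replicate 2 was above the 3 B10 libraries, while replicates 1 and 3 were below them. Replicate 2 had the highest acinar sum of its group, 2663 CPM, but the 3 B10 libraries had 3958 to 4988 CPM. A link of Rnf150 to acinar content was not tested. Asb11 has ankyrin repeats and a SOCS box, through which such proteins bring substrates to cullin-RING ubiquitin ligases. Asb11 (chrX:164436994-164459170, plus strand) had 0.646, 2.44 and 2.71 CPM in NOD_insHEL, 1.85, 1.44 and 1.33 CPM in NOD, 21.8, 23.8 and 20.4 CPM in B10_insHEL, and 30.0, 36.2 and 26.4 CPM in B10. The averaged log2 differences were -3.90 (SE 0.27) for Rnf150 and -4.03 (SE 0.20) for Asb11. Of 12 other Asb genes tested, 3 were lower in NOD, 1 was higher and 8 did not pass, few genes to set beside the 17.6% and 15.7% of all genes.

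Promoter sequence is shown for reference, since the data hold no measurement at the promoters. The promoters of the 3 highest members that have no copy, by the measure given further below, are shown. Each is 250 bases up to the start of the transcript in RefSeq on GRCm38.p6. That start can lie inside the gene as placed above by GENCODE, as for Col6a6 and Rec8, so part of those stretches is within the gene. Capitals mark a GC box (GGGCGG on either strand) or a CCAAT box (CCAAT on either strand, so ATTGG where it lies on the other). Dio1 is read from chr4:107307169-107307418 on the minus strand, Col6a6 from chr9:105828086-105828335 on the minus strand and Rec8 from chr14:55617916-55618165 on the plus strand.
Dio1: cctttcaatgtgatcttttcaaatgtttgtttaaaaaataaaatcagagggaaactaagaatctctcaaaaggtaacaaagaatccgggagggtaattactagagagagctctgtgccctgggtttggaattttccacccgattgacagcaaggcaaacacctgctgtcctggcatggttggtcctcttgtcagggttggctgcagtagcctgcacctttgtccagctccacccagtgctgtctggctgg
Col6a6: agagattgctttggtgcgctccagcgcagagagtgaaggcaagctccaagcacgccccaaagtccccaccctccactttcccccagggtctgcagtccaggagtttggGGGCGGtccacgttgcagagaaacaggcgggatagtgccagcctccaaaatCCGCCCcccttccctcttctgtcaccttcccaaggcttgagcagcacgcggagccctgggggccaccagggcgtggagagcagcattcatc
Rec8: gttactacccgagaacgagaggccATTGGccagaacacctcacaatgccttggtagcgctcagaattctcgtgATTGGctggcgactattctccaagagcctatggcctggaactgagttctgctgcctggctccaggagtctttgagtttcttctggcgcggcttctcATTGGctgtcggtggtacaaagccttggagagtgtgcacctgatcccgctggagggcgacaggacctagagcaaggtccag

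The 3 promoters do not share a box. Dio1 has none of the 4 motifs searched, Col6a6 has GC boxes on both strands and Rec8 has CCAAT boxes. Over the 17 RefSeq promoters of 15 members, each 300 bases long with 50 bases after the start, 41.2% hold a GC box, against 35.7% of 32851 promoters in the table. A CCAAT box stands in 29.4% against 37.4%, the letters TATAAA on either strand in 5.88% against 13.6%, and the cAMP response element tgacgtca in 0% against 1.79%. The promoters of members had a median GC content of 57.7% and 13 CpG pairs, against 52.7% and 7 over all promoters. These are matches of letters in the reference strain and not sites shown to be bound.

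2 members, Rpl34 and Rpl29, encode proteins of the large ribosomal subunit. Rpl34 (chr3:130726831-130730398, minus strand) had 2.95, 1.93 and 3.62 CPM in NOD_insHEL, 1.68, 1.89 and 0.591 CPM in NOD, 46.2, 49.0 and 56.4 CPM in B10_insHEL, and 51.9, 43.4 and 41.7 CPM in B10. Rpl29 (chr9:106429454-106431568, plus strand) had 0.738, 0.257 and 0 CPM in NOD_insHEL, 0.0842, 0.227 and 0.296 CPM in NOD, 10.1, 8.71 and 9.34 CPM in B10_insHEL, and 9.01, 7.43 and 7.69 CPM in B10. The averaged log2 differences were -4.57 (SE 0.16) for Rpl34 and -4.81 (SE 0.28) for Rpl29. Ribosomal proteins are normally made in equal amounts, since each ribosome holds a copy of each. The counts of their genes here were far from equal. Group means were 483 to 601 CPM for Rpl4 and 0.706 to 1.22 CPM for Rpl35. The counts of an Rpl gene are thus no measure of the amount made. Of 41 other Rpl genes tested, 3 were lower in NOD and 8 were higher, which is 30 not passing, beside 17.6% of all genes tested that were lower and 15.7% that were higher. The 3 lower ones were Rpl3 with a log2 difference of -2.98, Rpl35a with -2.01 and Rpl30 with -1.74. The 8 higher ones all lay between 0.28 and 0.64.

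Ndufs5 and Ahcy belong to core metabolism. Ndufs5 is an accessory subunit of mitochondrial complex I, the first enzyme of the respiratory chain. Ndufs5 (chr4:123712710-123718202, minus strand) had 0.184, 0.257 and 0 CPM in NOD_insHEL, 1.35, 0.529 and 0.591 CPM in NOD, 8.38, 8.01 and 9.05 CPM in B10_insHEL, and 6.68, 7.19 and 8.98 CPM in B10. Ndufs5 differed by -4.27 on the log2 scale (SE 0.28). Of the 7 other Ndufs genes 1 was lower (beside 17.6% of all genes), 2 were higher (beside 15.7%) and 4 did not pass, with differences between -0.28 and 0.52. Ahcy makes adenosine and homocysteine out of S-adenosylhomocysteine, the product left when methyl groups are transferred. Ahcy (chr2:155059310-155074497, minus strand) had 0.646, 0.514 and 0.452 CPM in NOD_insHEL, 0.505, 0.604 and 0.591 CPM in NOD, 3.63, 5.84 and 3.62 CPM in B10_insHEL, and 3.86, 3.60 and 3.09 CPM in B10. Its 6 NOD-background values were close together, but they rest on only 1 to 8 counts per library. Its log2 difference of -2.76 (SE 0.27) was the smallest of the 25.

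The remaining named protein-coding members were all under 5 CPM. Mfsd9, of the major facilitator superfamily of membrane transporters, had 0.277, 0 and 0.452 CPM in NOD_insHEL, 0.421, 0.378 and 0.148 CPM in NOD, 3.43, 3.66 and 2.29 CPM in B10_insHEL, and 3.74, 3.41 and 3.95 CPM in B10. Smim6, a small integral membrane protein, had 0.369, 0 and 0 CPM in NOD_insHEL, 0.253, 0.604 and 0.739 CPM in NOD, 3.84, 3.57 and 3.05 CPM in B10_insHEL, and 4.66, 3.03 and 3.66 CPM in B10. Their log2 differences were -3.67 (SE 0.37) and -3.50 (SE 0.38). Afm encodes afamin, a vitamin E binding plasma protein of the albumin family that is made mainly in liver. Afm had 0 CPM in all 3 NOD_insHEL libraries, 0.253, 0.0755 and 0.296 CPM in NOD, 1.21, 3.22 and 2.29 CPM in B10_insHEL, and 3.37, 3.12 and 2.66 CPM in B10. Nxpe2 had 0.0922, 0 and 0 CPM in NOD_insHEL, 0.0842, 0 and 0.296 CPM in NOD, 2.83, 2.18 and 2.10 CPM in B10_insHEL, and 2.14, 1.66 and 2.59 CPM in B10. At these levels a NOD-background value is a handful of reads, 4 in all for Nxpe2 and 6 for Afm, so the size of the difference is known only roughly (SE 0.52 and 0.59). Of 18 other Mfsd genes tested, 5 were lower in NOD (beside 17.6% of all genes), 4 were higher (beside 15.7%) and 9 did not pass, and both other Nxpe genes tested did not pass.

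Predicted protein-coding members with no role given here are 3425401B19Rik, Gm14399 and Gm5148. Gm5148 (chr3:37714190-37724490, minus strand), the lowest of the 25, had 0 CPM in all 3 NOD_insHEL libraries, 0, 0.0755 and 0 CPM in NOD, 1.31, 2.53 and 1.14 CPM in B10_insHEL, and 1.84, 1.28 and 1.65 CPM in B10. The NOD value is 1 count. Its pooled CPM was 84.8 times lower in NOD, with a counting interval of 15.0 to 3376 that shows how little 1 count fixes. 3425401B19Rik had 0 to 1.13 CPM on the NOD background and 5.15 to 9.19 CPM on the B10 background. ENSMUSG00000062808, the identifier with no entry in the annotation, had 0.0922, 0.385 and 0.452 CPM in NOD_insHEL, 0.253, 0 and 0.296 CPM in NOD, 1.92, 6.27 and 4.67 CPM in B10_insHEL, and 3.92, 4.31 and 3.81 CPM in B10.

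The 3 long noncoding members each overlap a protein-coding gene on the opposite strand. Gm20400 (chr6:142161493-142173796, plus strand) lies across Slco1a6, a gene of an organic anion transporter family. Gm20400 had 0 counts in all 6 NOD-background libraries, against 10.5, 10.3 and 7.15 CPM in B10_insHEL and 10.8, 10.6 and 17.2 CPM in B10. Taken against 3 counts over the 6 NOD-background libraries, it was at least 198-fold lower in NOD. Slco1a6 differed the other way, with 159 to 296 CPM on the NOD background and 66.4 to 111 CPM on the B10 background (log2 difference 1.40, SE 0.12, edgeR adjusted p = 6.89e-08). 4930481A15Rik (chr19:5406740-5422847, plus strand) had 0.369, 0.514 and 0.904 CPM in NOD_insHEL, 0.421, 1.13 and 0.443 CPM in NOD, 10.3, 13.3 and 11.3 CPM in B10_insHEL, and 8.21, 9.51 and 7.26 CPM in B10. The gene opposite it, Drap1, had 68.2 to 78.9 CPM on the NOD background and 61.8 to 81.3 CPM on the B10 background and did not pass (log2 difference 0.13). 5830444B04Rik (chr4:155398763-155421704, minus strand) had 0, 0.257 and 0 CPM in NOD_insHEL, 0 CPM in all 3 NOD libraries, 9.79, 12.2 and 14.4 CPM in B10_insHEL, and 5.88, 4.78 and 9.05 CPM in B10. Its 2 counts on the NOD background put the pooled ratio at 225-fold lower in NOD, with a counting interval of 62.1 to 1862. Cfap74, opposite 5830444B04Rik, had 2.44 to 4.98 CPM on the NOD background and 2.73 to 4.67 CPM on the B10 background. Smim6 and Nxpe2 also overlap a coding gene on the opposite strand, Recql5 and Nxpe4, and both of those did not pass. The library kit keeps the strand, but the strand setting of the counting is not given in the sources used here, and without it reads of a gene and its antisense partner cannot be told apart.

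The 4 pseudogene members are Gm9493, Gm12901, Gm14567 and Gm4735, whose closest coding relatives by sequence are Rps7, Rpl11, Polr2k and Eno1b. Gm9493 (chr19:23619749-23620319, plus strand), a copy of the small ribosomal subunit gene Rps7, had 0.0922, 0.257 and 0 CPM in NOD_insHEL, 0.168, 0.151 and 0.148 CPM in NOD, 10.5, 14.6 and 12.01 CPM in B10_insHEL, and 11.6, 13.2 and 11.6 CPM in B10. Its log2 difference was -6.25 (SE 0.26). Gm12901 (chr4:123258046-123258904, plus strand), a copy of the large subunit gene Rpl11, had 0, 0 and 0.452 CPM in NOD_insHEL, 0.0842, 0 and 0 CPM in NOD, 5.86, 2.70 and 7.24 CPM in B10_insHEL, and 5.15, 5.72 and 5.17 CPM in B10. Gm14567, a copy of the RNA polymerase subunit gene Polr2k, had 1 count on the NOD background and 2.62 to 7.06 CPM on the B10 background. Gm4735, which matches the enolase-like gene Eno1b in 99.8% of aligned bases and the glycolytic enolase gene Eno1 in 99.6%, had 0 counts on the NOD background and 2.53 to 3.68 CPM on the B10 background, at least 52.3-fold lower in NOD.

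Several members have similar or near-identical copies elsewhere in the genome. Short reads from a gene with a near-identical copy can be placed on either, and how the authors' counting treated them is not given in the sources used here. Transcripts were compared across GENCODE, and a copy was taken as at least 90% identity over at least 50% of a member transcript on the same strand. Not every copy is near-identical by this measure. The closest relative of Gm12901 matches it in 90.7% of aligned bases, and Zfp970 counts as a copy of Gm14399 by 191 aligned bases. By this measure 9 of the 25 genes have copies, 5 of them protein coding (Rpl34, Rpl29, Ndufs5, Ahcy and Gm14399) and all 4 pseudogenes, while 15 annotated members have none. The sums below hold only copies among the genes counted by the authors. These are 44 of 72 copies for Rpl29, 7 of 10 for Rpl34 and 6 of 14 for Gm9493. For Gm4735 they are 3 of 7 and for Gm14567 2 of 8. For Ndufs5, Gm12901, Ahcy and Gm14399 all copies found were among the genes counted. Of 27 copies that were tested and are no members, 10 were higher in NOD and 5 were lower, beside 15.7% and 17.6% of all genes tested. Of the 27, 14 are copies of 1 member, Gm14399, so these counts rest largely on 1 family. In insHEL islets alone 7 were higher and 3 lower, beside 5.55% and 6.5% of all genes.

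Ndufs5 has 1 copy. This copy, the pseudogene BC002163 on chromosome 16, is 99.4% identical and had 17.4 CPM on the NOD background and 7.50 CPM on the B10 background (log2 difference 1.21, SE 0.12, edgeR adjusted p = 1.64e-07). Summed over both genes, the NOD_insHEL libraries had 16.9, 17.1 and 18.5 CPM, the NOD libraries 19.2, 15.3 and 20.1 CPM, the B10_insHEL libraries 16.1, 15.6 and 16.8 CPM and the B10 libraries 14.8, 13.9 and 16.2 CPM. The sums averaged 17.8 ± 1.77 CPM in NOD and 15.5 ± 1.05 CPM in B10 (SD, n = 6 each) and overlapped, so the large difference of Ndufs5 alone was not seen in the pair. A read can be told apart between these genes only where they differ, which is at 2 of all 319 aligned bases. A stretch of 90 bases is shown, picked, like those further below, where the lines differ most. Capitals mark the positions at which the lines differ, 2 in the stretch, counted from base 16 of the Ndufs5 coding sequence in GRCm38.
Ndufs5: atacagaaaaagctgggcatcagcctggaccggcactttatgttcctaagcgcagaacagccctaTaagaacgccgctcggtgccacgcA
BC002163: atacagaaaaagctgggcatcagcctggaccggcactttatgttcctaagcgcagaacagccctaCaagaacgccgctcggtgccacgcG

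The sums of the Rps7 and Rpl11 families overlapped too. Gm9493 together with its copies, chiefly Gm6472 on chromosome X, summed to 34.8, 34.3 and 39.3 CPM in NOD_insHEL, 43.6, 31.3 and 50.0 CPM in NOD, 28.5, 32.7 and 28.7 CPM in B10_insHEL, and 32.6, 25.9 and 25.7 CPM in B10. The ranges overlap, and the mean of the 6 NOD-background sums was 1.34 times that of the B10-background sums. Gm6472 alone had 36.7 CPM on the NOD background and 15.4 CPM on the B10 background (log2 difference 1.24, SE 0.13, edgeR adjusted p = 7.39e-07). Rps7 itself was counted at only 0.982 to 2.83 CPM on the NOD background and 1.01 to 1.51 CPM on the B10 background. The lines below hold 90 bases shared by the 3 genes, and capitals mark the 3 positions at which they are not all alike.

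Rps7: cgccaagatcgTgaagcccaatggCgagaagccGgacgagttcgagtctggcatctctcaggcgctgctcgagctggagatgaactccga
Gm9493: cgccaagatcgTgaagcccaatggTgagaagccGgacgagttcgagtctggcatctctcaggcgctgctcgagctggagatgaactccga
Gm6472: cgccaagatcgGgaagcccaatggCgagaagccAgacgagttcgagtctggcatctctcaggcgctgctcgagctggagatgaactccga

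Gm12901 has 3 tested relatives. On the NOD background Gm10288 had 22.4 CPM, Rpl11 4.76 CPM and Gm10036 2.31 CPM, and on the B10 background Gm10288 had 2.43 CPM, Rpl11 2.97 CPM and Gm10036 19.9 CPM. Gm10288 thus differed by 3.52 (SE 0.35, edgeR adjusted p = 2.63e-05) and Gm10036 by -3.29 (SE 0.24, edgeR adjusted p = 7.77e-09). Summed with Gm12901 they came to 29.6 ± 2.68 CPM in NOD and 30.7 ± 4.81 CPM in B10 (SD, n = 6 each), a ratio of 0.967. Which of these genes held the counts differed between the backgrounds, while their sum overlapped. Without Gm12901 the copies had 26.7 to 33.7 CPM in NOD and 21.6 to 30.3 CPM in B10, which overlapped already. Gm12901 added a mean of only 5.31 CPM in B10, so the overlap of the sum says little about Gm12901 itself. Gm10288 differs from Rpl11 at 1 of the 90 bases shown and Gm12901 at 7, with capitals at the 8 positions where any line differs.

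Rpl11: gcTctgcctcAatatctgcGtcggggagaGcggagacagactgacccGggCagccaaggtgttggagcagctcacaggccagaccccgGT
Gm12901: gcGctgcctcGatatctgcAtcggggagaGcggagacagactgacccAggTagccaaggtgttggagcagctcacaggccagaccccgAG
Gm10288: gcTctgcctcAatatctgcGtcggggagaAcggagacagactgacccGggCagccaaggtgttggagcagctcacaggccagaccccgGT

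For 5 other members the sums were lower in NOD and did not overlap, but each sum holds the member itself, so this is in part set by the choice of genes. Without the member, the copies of Rpl34 averaged 3.91 CPM in NOD and 2.99 CPM in B10, those of Rpl29 1.65 CPM in NOD and 1.45 CPM in B10, and those of Gm14567 1.44 CPM in NOD and 0.952 CPM in B10. Those of Ahcy averaged 3.57 CPM in NOD and 3.73 CPM in B10, and those of Gm4735 8.07 CPM in NOD and 15.9 CPM in B10. The ranges of these copies overlapped between backgrounds in all but the last. Rpl34 with its copies summed to 6.02 ± 1.42 CPM in NOD and 51.1 ± 6.06 CPM in B10 (SD, n = 6 each), and no NOD-background library exceeded 7.69 CPM. Rpl29 with its copies summed to 1.92 ± 0.531 CPM in NOD and 10.2 ± 1.20 CPM in B10. Gm14567 with Polr2k came to 1.45 ± 0.443 CPM in NOD and 5.01 ± 1.45 CPM in B10, although Polr2k matches it in 100% of the aligned bases. Ahcy with Gm4737 and others came to 4.12 ± 1.51 CPM in NOD and 7.66 ± 1.46 CPM in B10, which is 0.537 of the B10 level, where Ahcy alone was at 0.140. Gm4735 with its enolase relatives came to 8.07 ± 2.54 CPM in NOD and 18.9 ± 2.04 CPM in B10. There the copies moved apart, since Eno1 differed by -1.40 (SE 0.16, edgeR adjusted p = 1.01e-06) and Eno1b by 1.98 (SE 0.45, edgeR adjusted p = 0.00196). Gm14399 has 68 copies, most of them in its own cluster on chromosome 2, and their sum was higher in NOD, 76.1 ± 7.50 CPM against 50.2 ± 9.64 CPM in B10, with no overlap. Among them Gm14403 had 23.5 CPM on the NOD background and 5.95 CPM on the B10 background (log2 difference 2.01), while Gm14443 had 0.159 CPM on the NOD background and 2.33 CPM on the B10 background (-3.53). What part read placement has in any of these differences was not tested.

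**Figure D2:**
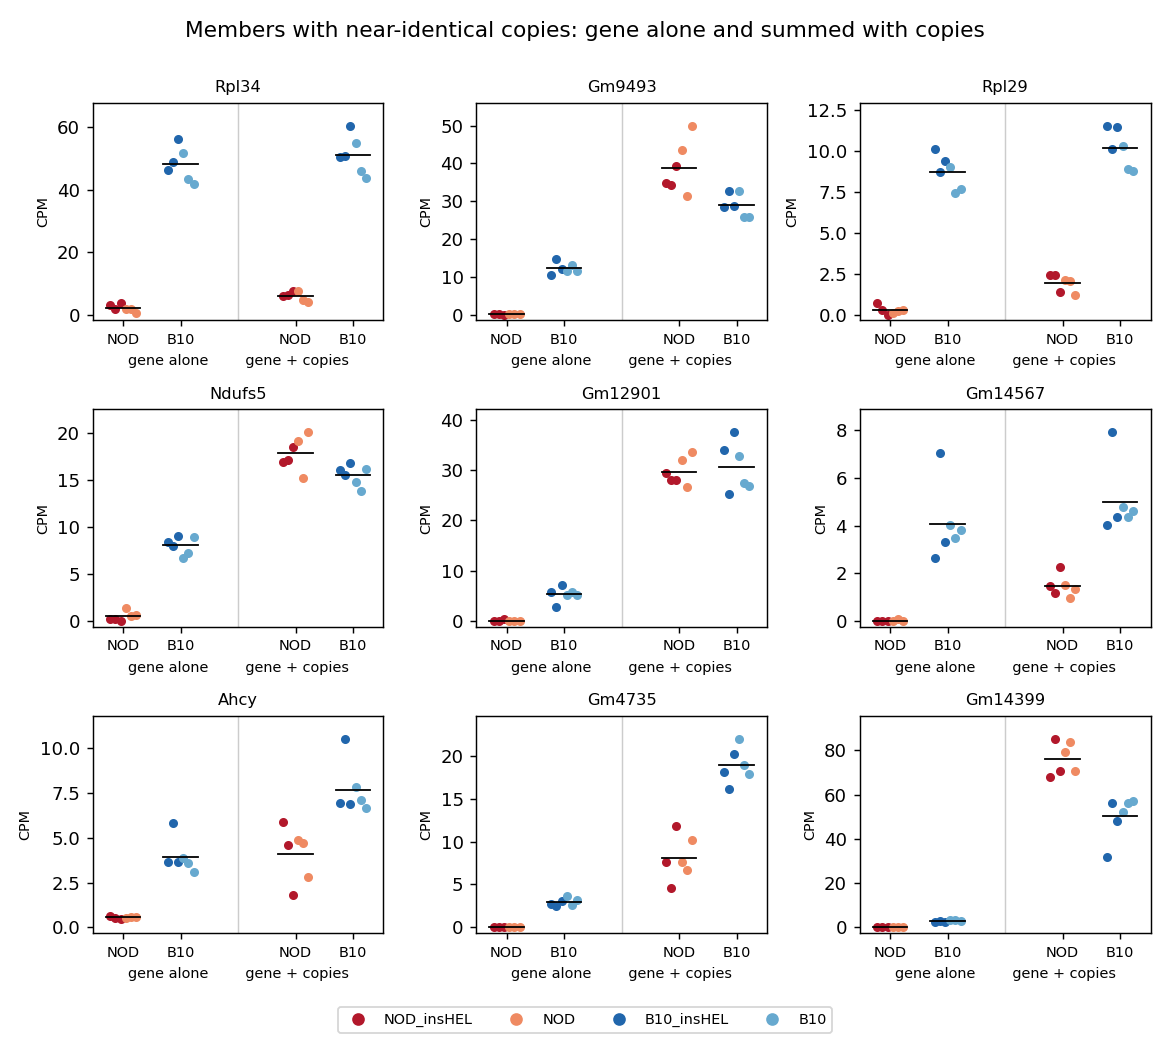
CPM of the 9 genes with copies of at least 90% identity, each point 1 library, coloured by group, and bars at the mean of 6 libraries. Left in each panel is the gene alone, and right the sum with those of its copies that are among the genes counted. For Ndufs5, Gm9493 and Gm12901 the sums overlap between backgrounds, for Gm14399 the sum is higher in NOD, and for the other 5 the sum, which holds the gene itself, is lower in NOD.

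The insHEL effect was not used in choosing the genes, so it was tested. In B10 islets the comparison of B10_insHEL with B10 called 1 of the 25 genes, 5830444B04Rik, beside 6.85% of the 15352 genes tested (edgeR, Benjamini-Hochberg adjusted p under 0.05). 5830444B04Rik was higher with insHEL by 1.04 on the log2 scale (SE 0.28, edgeR adjusted p = 0.0295), and its 3 B10_insHEL values, given above, all exceed its 3 B10 values. The call was lost without B10_insHEL replicate 3, B10 replicate 1 or B10 replicate 2, at adjusted p between 0.118 and 0.161. Acinar content moved with this comparison, as the sums above show, and with an acinar score as a covariate the difference was 0.95 and no longer passed (adjusted p = 0.317). Over the 25 genes the median insHEL effect in B10 was 0.12, with 14 above 0 and a range of -0.36 to 1.04, beside -0.000354 over all genes tested. Col6a6 (-0.36, SE 0.15, adjusted p = 0.151) and 4930481A15Rik (0.62, SE 0.23, adjusted p = 0.102) came next and did not pass. For Dio1 the estimate was -0.09 (SE 0.15) and for Rec8 -0.01 (SE 0.27).

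In NOD islets 0 of the 25 genes passed for NOD_insHEL against NOD (edgeR), beside 7.06% of all genes tested. DESeq2 also called 0. The lowest adjusted p was that of Ndufs5 (-1.995, SE 0.65, adjusted p = 0.0649), followed by Rpl34 (0.90, SE 0.32, adjusted p = 0.0924), which passed when no filter on low counts was applied. With 17 of the genes at 0 counts in at least 1 NOD-background library, most of these estimates are wide, so a miss does not show that insHEL has no effect. Dio1, which has the counts to be measured, was at -0.29 (SE 0.19, adjusted p = 0.385). The difference between the insHEL effects of both backgrounds was called for 0 of the 25 genes by edgeR and by DESeq2, beside 0.0586% of all genes by edgeR. The lowest edgeR adjusted p among the 25 was 0.217.

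**Figure D3:**
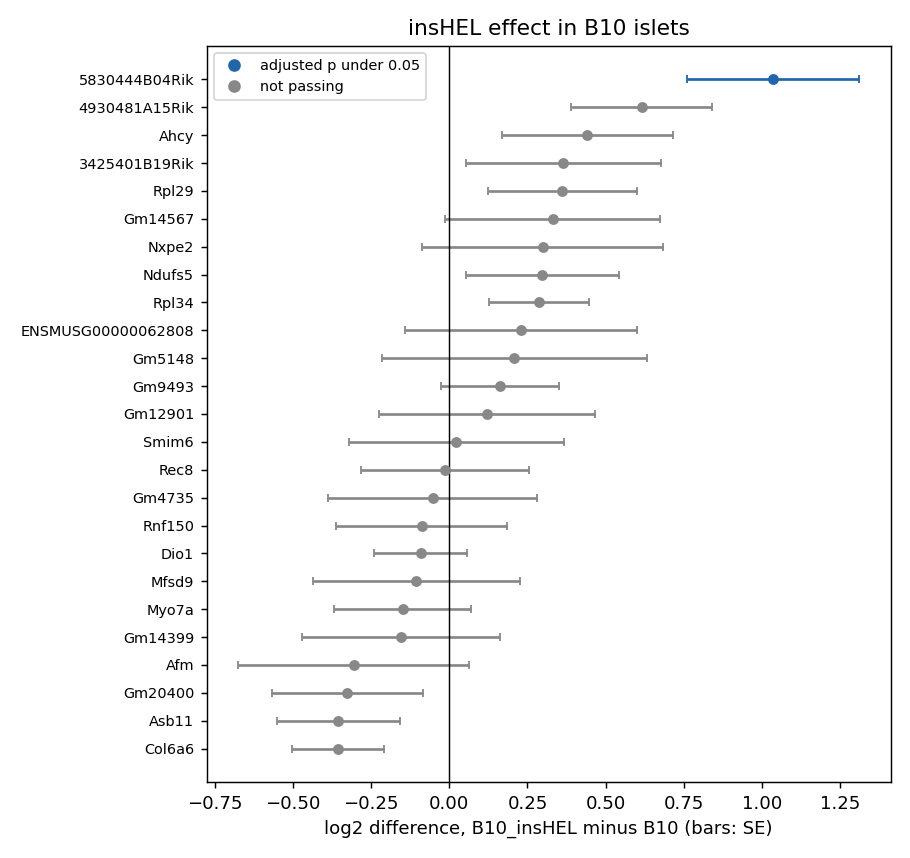
Log2 difference B10_insHEL minus B10 for each of the 25 genes, points with bars of 1 SE, ordered by size. 5830444B04Rik at 1.04 is the 1 gene that passes, and the other 24 lie between -0.36 and 0.62.

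Neighbouring genes were lower in NOD about as often as genes overall. Within 500 kb of a member, 316 other genes were tested for the averaged strain difference, of which 61 were lower in NOD (19.3%, beside 17.6% of all genes tested) and 59 higher (18.7%, beside 15.7%). When an acinar score entered the fit, 9.49% were lower (beside 8.47% of all genes) and 7.91% higher (beside 6.94%). The median log2 difference of the neighbours was 0.04, with 1 of them, Gm14443, at -2 or below and 3 at 2 or above. Members are left out of the neighbours, so the number at -2 or below is in part set by the choice of genes. In insHEL islets alone 25 were lower (7.91%, beside 6.5%) and 17 higher (5.38%, beside 5.55%). The shares are near those of all genes. Pairs of members are rare too: Ndufs5 and Gm12901 lie 454 kb apart on chromosome 4 and Col6a6 and Rpl29 601 kb apart on chromosome 9, and no others lie within 1000 kb.

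Of the 5 neighbours with the lowest adjusted p, 4 were higher in NOD. Slco1a1, which lies 215 kb from Gm20400 and belongs to the same transporter family as Slco1a6, had 4.50 to 6.72 CPM on the NOD background and 0 to 0.303 CPM on the B10 background (log2 difference 5.94, SE 0.43, edgeR adjusted p = 1.15e-09). Dhrs4, a short-chain dehydrogenase 128 kb from Rec8, had 52.0 to 79.9 CPM on the NOD background and 13.9 to 26.2 CPM on the B10 background (1.57, SE 0.11, edgeR adjusted p = 8.49e-10). The actin regulator Carmil3, also near Rec8, was higher by 1.41 and the kinase gene Pak1, 139 kb from Myo7a, by 1.49. Scoc, 339 kb from Rnf150, was lower, with 9.26 to 13.6 CPM on the NOD background and 26.9 to 32.5 CPM on the B10 background (-1.27, SE 0.10, edgeR adjusted p = 6.25e-09). All 5 also passed in insHEL islets alone, in the same direction. Around Dio1 6 of 15 neighbours were lower and 1 higher, around Rnf150 4 of 8 were lower and 0 higher, and around Asb11 5 of 10 were lower and 2 higher. Around Rec8 3 of 28 were lower and 7 higher, and around Gm20400 3 of 11 were lower and 6 higher. These places were picked from those of 24 members and hold few genes each, beside 17.6% lower and 15.7% higher over all genes tested.

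**Figure D4:**
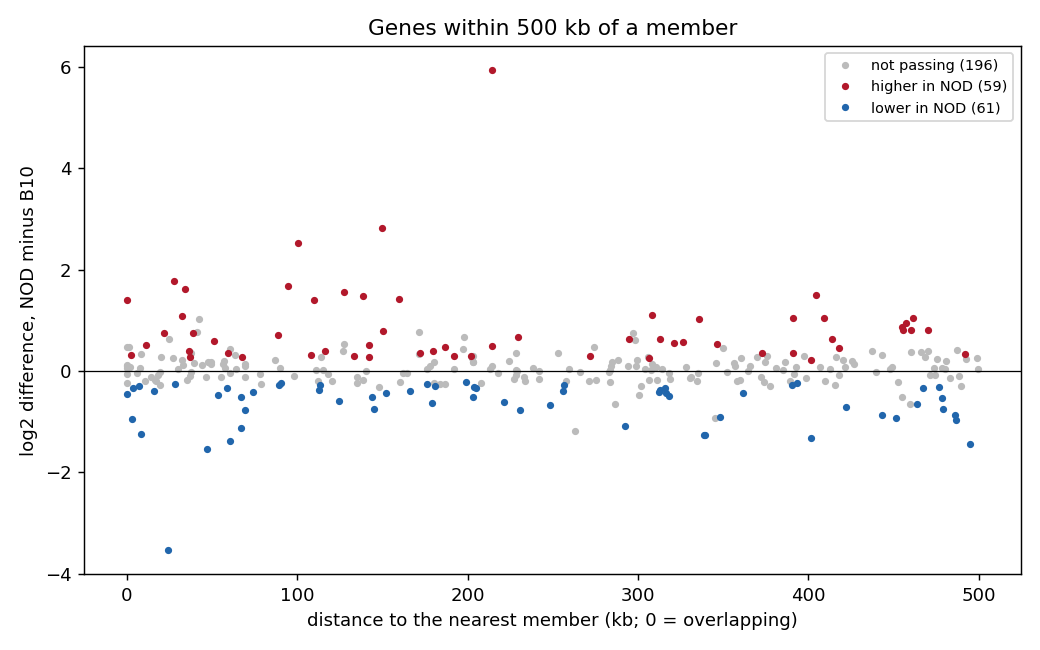
Log2 difference, NOD minus B10 averaged over insHEL, of the 316 tested genes within 500 kb of a member against their distance in kb, each point 1 gene. Points above 0 (59 called) and below 0 (61 called) are about equally many, and the highest point, at 5.94, is Slco1a1.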

How the data were processed

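The deposited table holds raw read counts per Ensembl gene for 12 libraries. The submitters' processing notes name GRCm38, which is the C57BL/6J genome, and 4 tools: TopHat2 2.0.8b for one, with DESeq, HTSeq and cutadapt. Not given in the sources used here are the annotation release, whether counting used strand, its mode, and what became of reads with several matches. No NOD genome was used here.

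CPM is the count over the library total. Symbols, types and coordinates come from GENCODE vM21 by identifier (95.2% of identifiers, 99.8% of counts). Counts were fitted in R 4.3.3 with edgeR 4.0.16: filterByExpr (15352 genes), TMM scaling, 4 group means over 12 libraries, robust quasi-likelihood tests, two-sided, Benjamini-Hochberg adjustment and a threshold of 0.05. The common biological coefficient of variation was 0.142. On simulated data for the insHEL effect in B10, 70% of genes changed by 1 and 97% of genes changed by 2 (log2) were recovered over 15075 genes. P-values measure the spread between libraries of 3 mice a group. Copies were found with blastn 2.17.0. Floors are 3 counts, and counting intervals are exact at 95%.

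The members and lists were chosen with earlier results of these data known. The 12 named protein-coding members with the highest medians, those called for insHEL, those near or of a family with another, the 3 highest of other types and those just inside the limits are given by library, and genes just outside by the value at the limit alone. Of other genes, families go by symbol stem and neighbours by the 5 lowest adjusted p. Copies, Rad21, Slco1a6 and Dio1's family were named after values were seen. Alternatives were DESeq2 1.42.0, RLE factors, no filter, an acinar score as covariate, a replicate block, other limits and each library left out.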

Additional observations from a re-analysis of the deposited data

How the results depend on the processing

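Choosing the genes with TMM-scaled CPM gave 27 genes, a floor of 0.5 CPM 27 and a floor of 2 CPM 21. A 3-fold limit gave 38 and an 8-fold limit gave 8. Leaving out 1 library gave 25 to 31 genes, with 31 without the shallow NOD_insHEL replicate 3. Under this rule a lower limit or a library fewer can only add genes. That the 25 stay in such sets is therefore no check of them. The ratios of summed CPM moved little with TMM scaling.

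The count for the insHEL effect in B10 was 1052 over all genes, 241 with the acinar score as a covariate and 428 to 1566 with a library left out. Of the members it called 1, 0 with the acinar score and 0 to 1 with a library left out. 5830444B04Rik itself ranged between 0.83 and 1.32. The insHEL effect in NOD called 1084 genes, 107 to 1522 with a library left out, and 1 member, Rpl34, with no filter. The interaction called 9 genes, 93 by DESeq2, 161 with no filter, 42 with the acinar score and 2 to 162 with a library left out, the most without B10_insHEL replicate 2, and 0 members in any of these.

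Of the neighbours within 500 kb 19.3% were lower, but 9.49% with the acinar score, and 16.0 to 20.2% with a library left out. The share higher was 18.7%, but 7.91% with the acinar score, and 13.9 to 18.4%. In insHEL islets 5.85 to 8.23% were lower and 3.08 to 5.56% higher with a library left out, the lowest without NOD_insHEL replicate 1 (3.08%) or 3 (3.38%). Windows of 250 kb and 1000 kb gave 20.8% and 18.3% lower and 20.8% and 18.6% higher. Of the copies 5 were lower, 3 with the acinar score, 3 at 95% identity (13 copies) and 3 to 6 with a library left out (3 without NOD_insHEL replicate 1 or 2, NOD replicate 3 or B10 replicate 3), and 10 were higher, 4 at 95% identity. In insHEL islets 3 copies were lower, 5 with no filter, and 7 were higher, 3 at 95% identity and 6 to 8 with a library left out. The 95% limit tests fewer genes, and the cause of the other shifts was not tested.

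No pairing of mice by replicate number was seen: over 18 same-numbered pairs the correlation of deviations was -0.095 to 0.080. With 3 libraries a group this does not show that the mice were unpaired. With the replicate number as a block, the counts were 5023 for the averaged strain difference (5107 without), 1857 in insHEL islets (1850), 1032 for insHEL in B10, 961 in NOD and 8 for the interaction, with 1, 0 and 0 members called. Depth limits low NOD values: 0 counts allow 1.36 CPM in NOD_insHEL replicate 3, above the B10 level asked of a member, and 0.227 to 0.443 CPM in the other 5 NOD-background libraries.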
